A study of Mus musculus with 4 samples.

Results

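Alveolar macrophages live on the air side of the lung, where they take up and break down surfactant lipid, and PPAR-gamma, a lipid-sensing nuclear receptor induced by GM-CSF around birth, drives the genes by which they are recognised. PPAR-gamma binds DNA as a pair with the retinoid X receptor and acts together with LXR-alpha, the oxysterol sensor encoded by Nr1h3. Their targets import fatty acids, store them in droplets, burn them in mitochondria and export cholesterol. The genes described here are 38 genes of this program, taken as a list of names: nuclear receptors and other transcription factors, identity proteins, and proteins of lipid uptake, storage, efflux and oxidation. Of the 38 genes, 37 had a probe that a RefSeq table names through its accession, among 20828 gene symbols with a probe on the array. Apoc2 was the member with no such probe. Where a gene had several probes, the brightest one over all arrays stands for it.

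The samples were total RNA of BALF cells, which are those washed out of the airways and alveoli (bronchoalveolar lavage fluid), from bleomycin-administered mice, with 2 arrays of wild-type mice and 2 of S1pr2-/- mice. Mice of both genotypes had received repeated intraperitoneal bleomycin at 0.035 U/g, and cells were taken on day 22 of administration per the sample records. The S1pr2-/- mice carry a targeted disruption of S1pr2, a receptor for sphingosine-1-phosphate, in every cell, and the wild-type mice were littermates on the same mixed background. The age of the mice is not in the sample records, no array of saline-treated mice was analysed here, and whether an array holds the cells of 1 mouse or of several was not found. The records call the RNA source alveolar macrophages, while the protocol names BALF cells and no sorting step. Values below are log2 of a probe's signal over the 75th percentile of its array, so that 0 is the level of that percentile, and a log2 fold change is the mean of the arrays labelled S1pr2-/- minus the mean of the wild-type arrays. Levels of different probes are not compared, since probes bind with different strength.

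The targeted gene went against the label. S1pr2 gave -0.13 and -0.16 in wild-type but 2.67 and 2.54 under the S1pr2-/- label, 6.72-fold higher, so that every direction below rests on the labels. Between the arrays of a genotype, the mean absolute log2 difference over the 27158 probes tested was 0.209 for wild-type and 0.199 for the arrays labelled S1pr2-/-.

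All 37 genes were well above background on all 4 arrays, beside 67.6% to 72.2% of all probes on each array. Markers of alveolar macrophages outside the list were present as well: 9 of 9 were well above background on all 4 arrays, among them Siglecf, the lectin by which these cells are sorted, the chitinase-like protein Chil3 and the mannose receptor Mrc1. Their log2 fold changes ran from -0.19 to 0.28. The 5 measured pan-macrophage markers, such as the lysozyme gene Lyz2 and the CSF-1 receptor gene Csf1r, ran from -0.13 to -0.03, and their summed linear signal was 549 and 559 times the 75th percentile in wild-type against 535 and 528 times on the arrays labelled S1pr2-/-. Macrophage markers were thus present on each array, but so were markers of other cells. All 8 epithelial and all 7 T cell markers were well above background on all 4 arrays. The summed signal of the 6 eosinophil markers was 5.59 and 13.3 in wild-type and 2.34 and 3.66 on the arrays labelled S1pr2-/-. Of the 6, 5 were lower on both arrays labelled S1pr2-/- (beside 21.8% of all probes). In bulk RNA, fewer cells of a type and less RNA per cell cannot be told apart.

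Most of the alveolar macrophage and PPAR-gamma genes differed little between genotypes. Over the 37 genes, the median log2 fold change was 0.09, beside -0.003 over all probes tested, with a range from -0.77 for Fabp1 to 0.64 for Apoe. No gene was past 2-fold in either direction (0 lower and 0 higher), and Fabp1, Fabp4 and Apoe were past 0.5 on the log2 scale. limma called 0 of the 37 at an adjusted p under 0.05, as it did for 0% of all probes, and the adjusted p of the genes ran from 0.509 to 0.996. At an unadjusted p under 0.05 from limma, 1 of 37 was higher (2.7%, beside 3.99% of all probes) and 0 of 37 lower (beside 5.59%). Run on these values, the methods' t-test gave 2 higher (5.41%, beside 3.66%) and 0 lower (beside 3.92%). The limma shares were under the background, while the higher share of the t-test was above it and its lower share under it. The higher side depended on the settings. With the scaling percentile taken over detected probes, 7 of 37 genes were higher (18.9%, beside 6.24% of all probes), and 5 of 37 (13.5%) were so under quantile normalization (beside 6.29%) and under a trended variance (beside 4.08%), each with 0 lower. Without replicate 1 of the arrays labelled S1pr2-/- the counts were 3 higher (8.11%, beside 4.92% of all probes) and 0 lower (beside 3.84%). Without their replicate 2 they were 0 higher (beside 2.8%) and 2 lower (5.41%, beside 3.84%), and without wild-type replicate 2 they were 2 higher (5.41%, beside 2.31%) and 0 lower (beside 6.04%).

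The small differences lay more often on the higher side. Both arrays labelled S1pr2-/- were above both wild-type arrays for 14 of 37 genes (37.8%), beside 20.0% of all probes, and below both for 3 of 37 (8.11%), beside 21.8% of all probes. The 14 genes were Pparg, Nr1h3, Fabp4, Fabp5, Lpl, Scarb1, Lrp1, Plin2, Dgat1, Pnpla2, Soat1, Nceh1, Cpt1a and Acadl, and the 3 were Car4, Fabp1 and Olr1. The log2 fold change was positive for 25 of 37 genes and for 48.1% of all probes. With 2 arrays per genotype the smallest two-sided p of an exact permutation test is 0.333, so a gene whose groups do not overlap passes no such test. Under quantile normalization the counts were 17 above and 2 below, beside 26.5% and 16.3% of all probes.

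**Figure D1:**
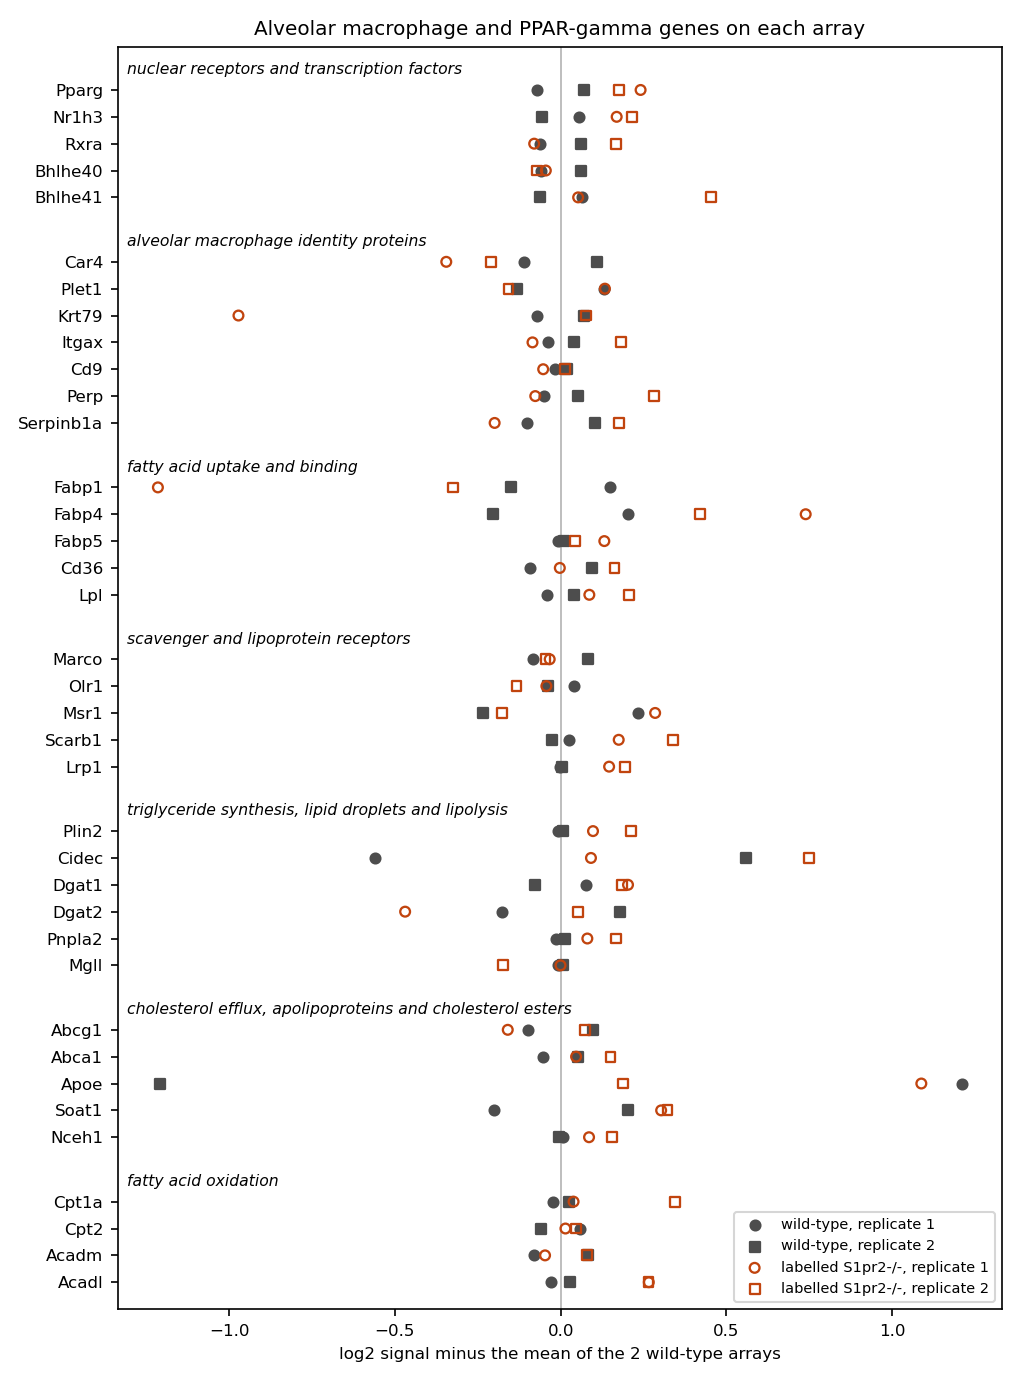
Each row is 1 gene and each point 1 array, plotted as its log2 signal minus the mean of the 2 wild-type arrays; filled symbols are wild-type, open symbols arrays labelled S1pr2-/-, circles replicate 1 and squares replicate 2. Most points lie close to 0, while Apoe, Fabp1, Krt79 and Cidec spread widely within a genotype.

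Of the 5 nuclear receptors and transcription factors, 2 were above wild-type on both arrays (beside 20.0% of all probes) and 0 below (beside 21.8%). Pparg, which encodes PPAR-gamma, was slightly higher on the arrays labelled S1pr2-/-. It gave 4.03 and 4.17 in wild-type and 4.34 and 4.28 on the arrays labelled S1pr2-/-, and the groups did not overlap. The log2 fold change was 0.21 (standard error, SE, 0.0813, a fold of 1.16), with a 95% interval from -0.04 to 0.46 and an adjusted p of 0.542 from limma. Nr1h3 gave 3.45 and 3.34 against 3.57 and 3.61, a log2 fold change of 0.19 (SE 0.0708), again without overlap. Its dimmer probe gave 0.26, also without overlap. Neither receptor passed the test. For Rxra, the retinoid X receptor that pairs with both, the values were -1.52 and -1.40 against -1.54 and -1.29, so that the groups overlapped, and the log2 fold change was 0.04.

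Bhlhe40 and Bhlhe41 encode repressors that sustain the identity and self-renewal of alveolar macrophages. Bhlhe40 had a log2 fold change of -0.06 (95% interval from -0.28 to 0.16). Bhlhe41 was at 0.25 with a wider interval, from -0.27 to 0.77, because replicate 2 of the arrays labelled S1pr2-/- read -0.96 while the other 3 arrays lay between -1.48 and -1.35. The groups overlapped for both genes on the brightest probe, while the dimmer probe of Bhlhe41 gave -1.41 and -1.77 against -1.31 and -1.17, a log2 fold change of 0.35 without overlap.

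The 7 identity proteins had a median log2 fold change of -0.01, and Car4 and Krt79 stood apart. Above wild-type on both arrays were 0 genes (beside 20.0% of all probes) and below 1 (beside 21.8%). Cd9, a tetraspanin, gave 6.65 and 6.68 against 6.61 and 6.68, and its 95% interval, from -0.21 to 0.17 on the log2 scale, was the narrowest of the group. The integrin gene Itgax, which encodes CD11c, had a log2 fold change of 0.05 (95% interval from -0.32 to 0.42), and Plet1, a surface protein of these cells, one of -0.01 (95% interval from -0.50 to 0.48). Serpinb1a, an inhibitor of neutrophil proteases, was at -0.01 and Perp, a desmosomal protein, at 0.10. The groups of these 5 genes overlapped. Perp was highest on replicate 2 of the arrays labelled S1pr2-/-, at 4.44 against 4.08 to 4.21 elsewhere. Perp is an epithelial gene too, and all 8 epithelial markers were well above background on all arrays. Scgb1a1, Krt19 and Foxj1 were also highest on that array, whereas Epcam, Cdh1, Krt18 and Sftpc were lowest on it. These last 4 of the 8 were below wild-type on both arrays labelled S1pr2-/- (beside 21.8% of all probes). The summed signal of the 8 was 44.9 and 53.4 in wild-type and 39.7 and 64.4 on the arrays labelled S1pr2-/-, and their part in the value of Perp was not tested.

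Car4, a carbonic anhydrase anchored to the membrane, was lower on both arrays labelled S1pr2-/-, at 4.36 and 4.49 against 4.59 and 4.81. The log2 fold change was -0.28 (SE 0.114, a fold of 1.21, adjusted p = 0.549 from limma), and the dimmer probe gave -0.25, also with both arrays below wild-type. Car4 is expressed in lung capillaries too and endothelial markers were mixed. Of the 5, Tek and Cldn5 were not well above background on any array, and the other three were so on all 4. Cdh5 lay between -6.64 and -6.25, at or next to the floor of the scale, and Kdr gave 2.46 and 2.78 in wild-type against 2.54 and 2.84. Pecam1 was lower on both arrays labelled S1pr2-/-, as Car4 was, at -3.80 and -4.01 against -3.44 and -3.50, with a log2 fold change of -0.44. Their summed signal was 5.60 and 6.98 in wild-type and 5.90 and 7.26 on the arrays labelled S1pr2-/-, and their part in the value of Car4 was not tested. Krt79, a keratin found in alveolar macrophages, gave 5.58 and 5.72 in wild-type and 4.67 and 5.72 on the arrays labelled S1pr2-/-. Its log2 fold change of -0.45 (SE 0.416) therefore rested on 1 array: without replicate 1 of the arrays labelled S1pr2-/- it was 0.08.

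The 3 fatty acid binding proteins, which carry fatty acids through the cytosol, did not share a direction. Fabp4, the PPAR-gamma target shared with fat cells, gave 4.55 and 4.14 in wild-type and 5.09 and 4.77 on the arrays labelled S1pr2-/-. Neither wild-type array reached them, and the log2 fold change was 0.58 (SE 0.209, a fold of 1.49, adjusted p = 0.534 from limma) and ranged from 0.38 to 0.78 with each array left out in turn. Fabp1, the form best known from liver and also made by alveolar macrophages, gave 3.64 and 3.34 in wild-type and 2.28 and 3.16 on the arrays labelled S1pr2-/-. Both were below wild-type, and the log2 fold change was -0.77 (SE 0.37, adjusted p = 0.582 from limma). The size depended on replicate 1 of the arrays labelled S1pr2-/-, without which it was -0.33, and without replicate 2 it was -1.21. That array also held the low value of Krt79. Fabp5, the epidermal form, was at 7.12 and 7.13 against 7.26 and 7.17, a log2 fold change of 0.09 (95% interval from -0.11 to 0.28).

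Fabp4 and several lipid droplet genes are also fat cell genes. Of the 5 fat cell markers, Adipoq and Cfd were not well above background on any array, Lep was so on 1, and Plin1 and Retn on all 4. Uptake genes showed smaller differences than Fabp4. Lpl, the lipase that releases fatty acids from lipoproteins, was at 6.52 and 6.60 against 6.65 and 6.77, a log2 fold change of 0.15 (SE 0.0781) on the brightest probe and 0.25 on the other, without overlap on either. Cd36, a fatty acid translocase and scavenger receptor, was at 0.08 (95% interval from -0.26 to 0.42), and its groups overlapped.

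**Figure D2:**
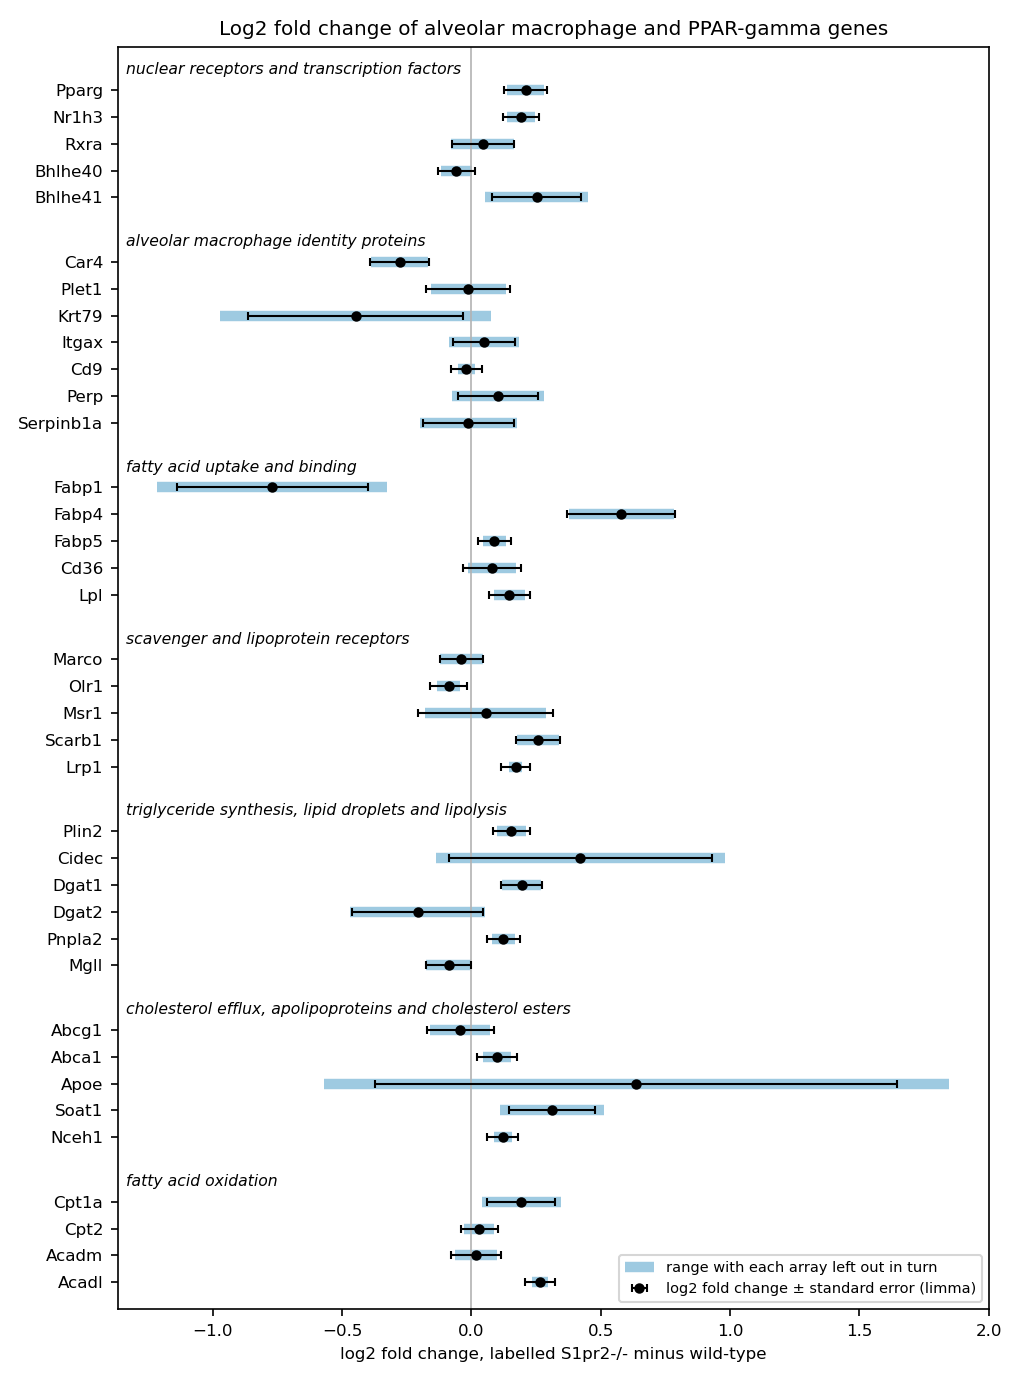
Points are log2 fold changes of each gene, labelled S1pr2-/- minus wild-type, black bars are standard errors from limma over all 4 arrays, and blue bars span the values with each array left out in turn. Acadl, at 0.27, has a narrow range above 0, while the ranges of Apoe, Cidec and Krt79 cross 0.

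In the RefSeq promoters, the binding sequence of PPAR-gamma with its partner was looked for as a direct repeat of AGGTCA with 1 base between the repeats (DR1), and that of LXR-alpha as the same repeat with 4 bases between (DR4), each on both strands with at most 2 mismatches in the 2 repeats together. A window of 250 bases before to 50 after the start was found for 27 of the 38 genes, 35 windows in all. A DR1 match was in 5 of the 35 windows (14.3%), those of Fabp1, Apoc2, Cd36, Plin2 and Rxra, beside 3.86% of 32851 windows of all genes. A DR4 match was in 0 of the 35, beside 3.02% of all windows. Of the windows of the further pathway genes described below, DR1 was in 1 of 69 (1.45%, beside 3.86% of all windows). DR4 was in 3 of 69 (4.35%, beside 3.02%). Fabp4, Fabp5 and Lpl were not among the genes with a window. The matches of the 4 genes that also had a probe are shown with 24 bases on each side on the strand of the gene, the match in capitals, so that the sequence of a gene can be read beside its value.

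Fabp1 (GRCm38.p6, chr6:71199788-71199848, plus strand, 1 mismatch): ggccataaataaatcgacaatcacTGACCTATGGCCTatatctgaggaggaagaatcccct
Plin2 (GRCm38.p6, chr4:86670248-86670308, minus strand, 2 mismatches): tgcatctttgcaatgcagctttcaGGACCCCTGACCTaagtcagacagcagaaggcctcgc
Cd36 (GRCm38.p6, chr5:17835923-17835983, minus strand, 2 mismatches): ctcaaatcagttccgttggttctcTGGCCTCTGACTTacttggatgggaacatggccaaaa
Rxra (GRCm38.p6, chr2:27709193-27709253, plus strand, 2 mismatches): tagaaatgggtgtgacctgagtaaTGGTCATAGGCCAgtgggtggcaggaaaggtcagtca

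In Fabp1, Plin2 and Cd36 the repeat lies on the opposite strand, so the capitals show its reverse complement, and in Rxra on the strand of the gene. The match starts 67 bases before the start in Fabp1 and 225 bases before it in Plin2. The 4 genes did not share a direction: the log2 fold change was -0.77 for Fabp1, 0.15 for Plin2, 0.08 for Cd36 and 0.04 for Rxra. A match of letters is a description and not a bound site.

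Of the 5 scavenger and lipoprotein receptors, 2 were above wild-type on both arrays (beside 20.0% of all probes) and 1 below (beside 21.8%). None of the 5 passed the test. Lrp1, a receptor for lipoproteins and protease complexes, gave 3.75 on each wild-type array against 3.90 and 3.94 on the arrays labelled S1pr2-/-, for a log2 fold change of 0.17 (SE 0.0568, unadjusted p = 0.0515 and adjusted p = 0.521 from limma). Scarb1, the receptor for high density lipoprotein, gave 2.87 and 2.81 against 3.02 and 3.18, a log2 fold change of 0.26 (SE 0.0857, adjusted p = 0.521 from limma), and its dimmer probe 0.43. For both genes the groups did not overlap, and neither was past the threshold. Marco, the scavenger receptor by which alveolar macrophages bind inhaled particles, was at -0.04 (95% interval from -0.29 to 0.22). Olr1, a receptor for oxidised low density lipoprotein, was at -0.09 with both arrays below wild-type, although the nearest arrays of the groups both read 3.43. Msr1, scavenger receptor A, was at 0.05 with a wide interval, from -0.74 to 0.85, and its dimmer probe at 0.21, since 1 array of each genotype was at about 1.3 and the other below 0.9.

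Of the genes of triglyceride synthesis, lipid droplets and lipolysis, 3 of 6 were above wild-type on both arrays (beside 20.0% of all probes). Below on both were 0 (beside 21.8%). Plin2, which coats the droplets, gave 6.06 and 6.08 in wild-type and 6.17 and 6.28 on the arrays labelled S1pr2-/-, for a log2 fold change of 0.15 (SE 0.07). Dgat1, which makes triglyceride from diacylglycerol, had a log2 fold change of 0.19 (SE 0.0804), and Pnpla2, the lipase that starts its breakdown, one of 0.12 (SE 0.064). The adjusted p of these 3 genes ran from 0.549 to 0.597. Dgat2, the other enzyme of the last step of synthesis, was at -0.21 (95% interval from -0.97 to 0.56), and Mgll, the lipase for monoacylglycerol, at -0.09 on its brightest probe and between -0.13 and 0.06 on its other 3.

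Cidec, which lets droplets fuse and grow, spread more within a genotype than between them. It gave 3.15 and 4.27 in wild-type, 2.17-fold apart, and 3.80 and 4.46 on the arrays labelled S1pr2-/-. The log2 fold change of 0.42 (SE 0.509) became -0.14 without wild-type replicate 1 and 0.98 without wild-type replicate 2. In both genotypes replicate 2 had the higher value, for Cidec as for Dgat2.

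Apoe, the apolipoprotein that macrophages secrete with cholesterol, had the widest spread of all 37 genes. The wild-type arrays gave 6.16 and 3.74, a difference of 5.35-fold, and the arrays labelled S1pr2-/- 6.04 and 5.14. The log2 fold change of 0.64 (SE 1.01, 95% interval from -2.42 to 3.70) was smaller than its error, and it was -0.57 without wild-type replicate 2 and 1.85 without wild-type replicate 1. Apoe is also a gene of monocyte-derived and interstitial macrophages, and of the 7 measured markers of monocytes and these macrophages, some varied between arrays as it did and others did not. The complement gene C1qa gave 3.42 and 2.90 in wild-type and 4.03 and 3.46 on the arrays labelled S1pr2-/-, Cx3cr1 2.33 and 1.77 against 2.90 and 2.53, and Folr2 -1.38 and -2.39 against -0.43 and -2.07. In each of these genes, in Fcrls and in Apoe, replicate 2 was the lower array of its genotype. Ccr2 gave 1.30 and 1.28 in wild-type, where Apoe differed most, and 1.72 and 1.02 on the arrays labelled S1pr2-/-, and Cd14 gave 2.42 on each wild-type array against 2.58 and 2.59. The summed signal of the 7 markers was 24.4 and 19.3 in wild-type and 34.9 and 25.7 on the arrays labelled S1pr2-/-. Above wild-type on both were 4 of the 7 (beside 20.0% of all probes), and below 0 (beside 21.8%). Lyve1 lay at the floor of the scale on all 4 arrays, none of them well above background. The part of these markers in the value of Apoe was not tested.

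**Figure D3:**
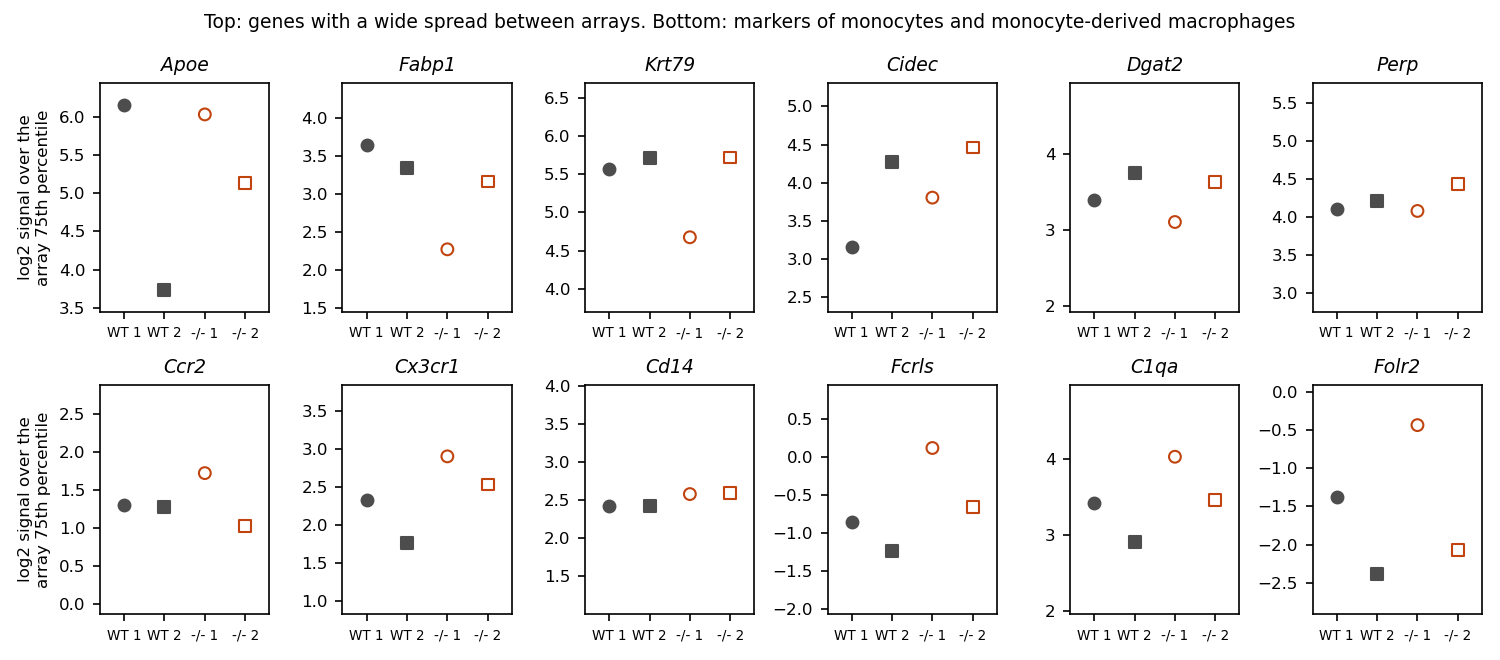
Panels show the log2 signal over the array's 75th percentile on each array for 6 genes with a wide spread between arrays (top) and for the 6 markers of monocytes and monocyte-derived macrophages above background (bottom), with WT 1 and WT 2 the wild-type arrays and -/- 1 and -/- 2 those labelled S1pr2-/-; every panel spans 3 log2 units. Apoe falls to 3.74 on wild-type replicate 2, where C1qa, Cx3cr1, Fcrls and Folr2 are also lowest while Ccr2 and Cd14 differ little between the wild-type arrays, and Krt79 falls to 4.67 on replicate 1 of the arrays labelled S1pr2-/-.

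The 5 measured genes of cholesterol efflux and esters had a median log2 fold change of 0.12, and the transporters themselves differed little. Abca1, which loads cholesterol onto apolipoproteins, gave 2.71 and 2.82 against 2.81 and 2.92, a log2 fold change of 0.10 (95% interval from -0.14 to 0.34). Abcg1, which exports it to high density lipoprotein and whose loss fills alveolar macrophages with lipid, was at -0.04 (95% interval from -0.44 to 0.35). The groups of both overlapped. The pair of enzymes that make and cleave cholesterol esters, Soat1 and Nceh1, were each above wild-type on both arrays, at 0.31 (SE 0.167) and 0.12 (SE 0.0603). Soat1 gave -0.37 and 0.04 in wild-type and 0.14 and 0.16 on the arrays labelled S1pr2-/-, so the wild-type arrays set most of its error.

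Acadl, the mitochondrial dehydrogenase for long-chain fatty acids, was the gene with the smallest p of the list. It gave 1.01 and 1.07 in wild-type and 1.30 on both arrays labelled S1pr2-/-, with no overlap and almost no spread within a genotype. The log2 fold change was 0.27 (SE 0.0582, a fold of 1.20, unadjusted p = 0.0163 and adjusted p = 0.509 from limma), and it stayed between 0.24 and 0.29 with each array left out in turn. Acadm, the dehydrogenase for medium chains, was at 0.02 (95% interval from -0.28 to 0.31). Cpt1a, which brings fatty acids to the mitochondrion, was at 0.19 (SE 0.132), with 3.56 and 3.61 in wild-type and 3.62 and 3.93 on the arrays labelled S1pr2-/-. On its dimmer probe the log2 fold change was 0.27, and the groups overlapped. Cpt2, the partner of Cpt1a on the inner membrane, was at 0.03, with overlap, on its brightest probe and at 0.26, without overlap, on the other. The 4 oxidation genes were all at positive log2 fold changes (beside 48.1% of all probes). Of these, Acadm and Cpt2 were near 0 and changed sign when an array was left out. On the brightest probes, Cpt1a and Acadl were above wild-type on both arrays, 2 of 4 (beside 20.0% of all probes), and 0 were below (beside 21.8%).

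A list of 69 further genes of the same pathways was read in the same way, of which 68 were tested. limma called 0 at an adjusted p under 0.05, and at an unadjusted p under 0.05, 8 were higher (11.8%, beside 3.99% of all probes) and 1 lower (1.47%, beside 5.59%), with adjusted p from 0.509 to 0.519. Both arrays labelled S1pr2-/- were above wild-type for 22 of 68 (32.4%, beside 20.0% of all probes) and below for 7 (10.3%, beside 21.8%). The median log2 fold change was 0.07. Genes of lipid droplets were among those at an unadjusted p under 0.05. Plin1, a droplet coat protein of fat cells, had a log2 fold change of 0.77 (SE 0.226), Cideb, a relative of Cidec, one of 0.50 (SE 0.131), and Plin4 one of 0.27 (SE 0.0774).

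Other genes at that threshold belong to fatty acid use and cholesterol traffic. Pdk4, a PPAR target that holds back the burning of glucose, gave 0.28 and 0.01 in wild-type and 0.90 and 0.66 on the arrays labelled S1pr2-/-, for a log2 fold change of 0.63 (SE 0.152). Acsl1, which activates fatty acids, was at 0.21, and Npc1 and Npc2, which release cholesterol from lysosomes, at 0.22 and 0.19. Tgfbr2, a receptor for TGF-beta, on which alveolar macrophage development depends, was at 0.21. Ppargc1b, a coactivator of PPARs and of mitochondrial genes, was the 1 gene on the lower side, at -0.36 (SE 0.0874). The count of 8 was smaller without wild-type replicate 1 and without replicate 2 of either genotype. Without replicate 2 of either genotype, the share of the further pathway genes fell under that of all probes. Without wild-type replicate 1 it stayed above it. Leaving out replicate 1 of the arrays labelled S1pr2-/- did not lower the count. Each of these fits left 1 array in a genotype, and the cause of the change was not tested.

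**Figure D4:**
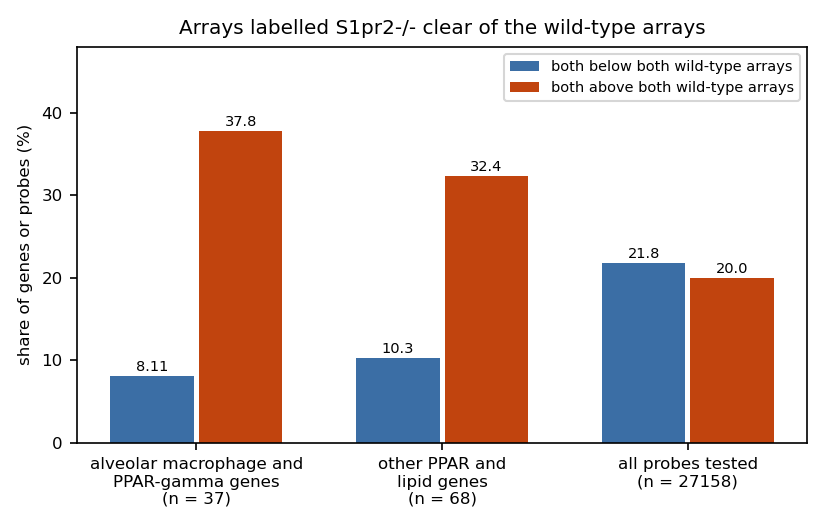
Bars give the share, in percent, of genes or probes for which both arrays labelled S1pr2-/- lay below (blue) or above (orange) both wild-type arrays, for the 37 alveolar macrophage and PPAR-gamma genes, the 68 further pathway genes and all 27158 probes tested. The first pair of bars, 8.11% and 37.8%, stands beside 21.8% and 20.0% for all probes.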

How the data were processed

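Total RNA of BALF cells was labelled with Cy3 and hybridised to 4 one-color Agilent arrays of a whole mouse genome design. The authors deposited the intensity of each spot as written by Feature Extraction (10.7.3.1 per the labels, 11.0.1.1 per the file headers), with local background already subtracted. They also deposited a table of log2 values, which matched the intensities scaled as described next and centred per probe on the wild-type arrays, within 0.01 for 100% of 39359 probes once a shift of up to 0.0123 was taken off each array; its column medians were 0.023, -0.023, -0.058 and -0.034, and it was used as an alternative.

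From the intensities, outlier spots marked by Feature Extraction were left out (115 to 273 of 43020 per array; 0 were saturated), values were divided by the array's 75th percentile (2489 to 2817 units), a floor of 0.01 was set and log2 taken. The methods set that minimum before the scaling and name an intensity-dependent Lowess step, which was not repeated. Probes were named by accession (69.5% of 39429) in a RefSeq table of GRCm38.p6. The array design uses another build, so coordinates are given for promoters only. A probe entered the test if no array lacked it and 1 genotype or more had it well above background on both arrays (27158 probes). The fit used limma 3.58.1 under R 4.3.3, with lmFit, eBayes and Benjamini-Hochberg adjustment over all of these probes. The script was tested on simulated data. The number of arrays limits the precision, and p-values measure the spread between 2 RNA samples per genotype. All arrays were on 1 slide, so no slide effect was fitted.

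Genes, lists and tests were chosen with earlier results of these data known. The text names all 38 genes, and of the pathway list those at an unadjusted p under 0.05; markers of other cells that are named beyond the brightest of a list were chosen after their values were seen. Alternatives were quantile normalization, the percentile over detected probes, normexp (on the median spot signal, with an offset of 50), the authors' log2 table, no floor, 2 other filters, outlier spots kept, the methods' t-test, eBayes with a trend, a replicate block, other probes, 1 probe per gene, and each array left out.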

Additional observations from a re-analysis of the deposited data

How the results depend on the processing

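limma called 0 of the 37 genes at an adjusted p under 0.05 under every alternative run, and the smallest adjusted p of a gene was 0.304. With all arrays, 31 of 37 genes kept the sign of their log2 fold change under all 13 alternatives. The exceptions were Plet1 (0.046), Cd9 (0.042), Marco (0.022) and Abcg1 (0.025) under quantile normalization, Serpinb1a (0.0027) and Acadm (-0.0091) under normexp, and Plet1 (0.041) as the median of its probes. The count of genes higher at an unadjusted p under 0.05, 1 with the settings reported, was 7 with the percentile over detected probes (18.9%, beside 6.24% of all probes), 5 under quantile normalization (13.5%, beside 6.29%) and under a trended variance (beside 4.08%), and 2 (5.41%, beside 2.81% to 3.68%) under normexp, in the authors' log2 table, without the floor, without the filter, with only probes well above background on all arrays and by the methods' t-test. Of the further pathway genes, the 1 lower (beside 5.59% of all probes) became 0 under quantile normalization (beside 3.86%) and by the methods' t-test (beside 3.92%). It became 2 with the percentile over detected probes (beside 5.28%), under normexp (beside 6.16%) and without the filter (beside 4.04%). The 8 higher (beside 3.99% of all probes) became 11 under a trended variance (beside 4.08%) and 10 under quantile normalization (beside 6.29%). They became 9 with the percentile over detected probes (beside 6.24%), 5 without the floor (beside 3.48%) and 4 by the methods' t-test (beside 3.66%). DR1 matches with 1 mismatch fewer were in 2 of 35 windows (5.71%), beside 0.554% of all windows. The cause was not tested, except that a stricter match finds fewer windows.

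With each array left out in turn, 20 of 37 genes kept their sign. The other 17 ranged from -0.080 to 0.17 (Rxra), -0.16 to 0.13 (Plet1), -0.014 to 0.17 (Cd36), -0.14 to 0.98 (Cidec), -0.065 to 0.097 (Acadm), -0.12 to 0.0022 (Bhlhe40), -0.20 to 0.17 (Serpinb1a), -0.12 to 0.043 (Marco), -0.18 to 0.29 (Msr1), -0.16 to 0.074 (Abcg1), -0.57 to 1.85 (Apoe), -0.027 to 0.089 (Cpt2), -0.97 to 0.076 (Krt79), -0.053 to 0.014 (Cd9), -0.47 to 0.053 (Dgat2), -0.085 to 0.18 (Itgax) and -0.077 to 0.28 (Perp). The median over the genes ranged from 0.047 (without replicate 2 of the arrays labelled S1pr2-/-) to 0.17 (without their replicate 1), the genes at an unadjusted p under 0.05 from 0 to 3 higher and from 0 to 2 lower (beside 2.31% to 4.92% and 3.84% to 6.04% of all probes), and the further pathway genes from 1 to 8 higher and from 0 to 3 lower. With 1 array fewer, 16 to 23 genes lay above and 5 to 11 below, where 30.8% to 37.5% and 33.1% to 39.2% of all probes did. A lone array was assumed to vary like the others.

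Nothing in the labels ties arrays of the same number together (over the 2 pairs, their deviations from the group means had a correlation of 0.187). When the replicate block was put into limma, 0 genes were called, and 2 were higher (Fabp4 and Acadl, beside 3.59% of all probes) and 1 lower (Car4, beside 5.36%) at an unadjusted p under 0.05, each with an adjusted p of 0.530.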
